A study of Mus musculus with 2 samples.

Results

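The cells described here are mouse testis cell barcodes rich in transcripts of Lyzl1 and Lyzl6, which encode lysozyme-like proteins of the sperm head, together with Iqcf5, Mbd3l1, Il31 and Clec4a2. In each of 2 single-cell libraries, the barcodes with at least 5000 unique molecular identifiers (UMIs, one per captured transcript) were ranked by the share of their UMIs that came from these 6 genes, and the 500 highest were taken. This gave 1000 barcodes of 26466 in all, and of 17311 with at least 5000 UMIs (9745 in one library and 7566 in the other). They are called the Lyzl-rich cells. Because the 6 genes chose the cells, the levels of these genes in them are a description and not a finding. The other deep barcodes, to which they are compared, are all remaining barcodes with at least 5000 UMIs.

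Testes of C57 BL/6 male mice were digested to single cells and profiled in droplets with a DNBelab C series kit. The study had 20 mice, bought at 5 weeks of age and adapted for 1 week, of which 10 were given a normal diet and 10 a diet with 60% of its energy from fat for 12 weeks. One library is labelled as testis of animals fed the fat-rich diet and is called the high-fat library. The other, whose label has no diet in it, is called the first library. Neither label says whether a library holds 1 mouse or several, and with 1 library per group no difference between them has a replicate check. Paired values below are for the first library and then the high-fat library. Levels are in CPM, the UMIs of a gene per 1000000 UMIs of the group of cells. Parentheses hold 95% intervals, which are exact Poisson ones for levels, conditional binomial ones for ratios and Clopper-Pearson ones for shares, and which cover counting error only. No test was possible, so higher and lower compare sums of cells or these libraries, not the diets.

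Round spermatids are the haploid germ cells that follow meiosis. They build the acrosome, a vesicle over the nucleus that carries the enzymes and membrane proteins used to meet the egg, and they transcribe many testis-specific genes under the activator CREM. Later they stop transcription, store messenger RNAs for translation, and replace histones with transition proteins and then protamines. Lysozyme-like proteins of the acrosome share the fold of lysozyme, the Iqcf genes encode small proteins with a calmodulin-binding IQ motif, and Mbd3l1 encodes a germ cell relative of the NuRD complex subunit Mbd3. Il31 encodes a cytokine known from helper T cells, and Clec4a2 a lectin-like receptor known from myeloid cells.

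The 250 bases upstream of the transcription start are printed for 3 of the 6 genes, since their transcripts were high in the same cells. They are from RefSeq on GRCm38.p6, 5′ to 3′ on the strand of the gene. Lyzl1, Iqcf5 and Mbd3l1 are not shown. The windows are chr11:103638891-103639140 (minus strand) for Lyzl6, chr5:123482624-123482873 (minus) for Il31 and chr6:123122440-123122689 (plus) for Clec4a2. Capitals mark the motif matches named after them.
Lyzl6: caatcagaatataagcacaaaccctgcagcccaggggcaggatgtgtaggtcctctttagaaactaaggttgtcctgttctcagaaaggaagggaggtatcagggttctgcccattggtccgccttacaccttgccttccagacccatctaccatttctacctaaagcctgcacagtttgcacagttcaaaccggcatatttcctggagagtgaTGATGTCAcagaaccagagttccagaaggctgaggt
Il31: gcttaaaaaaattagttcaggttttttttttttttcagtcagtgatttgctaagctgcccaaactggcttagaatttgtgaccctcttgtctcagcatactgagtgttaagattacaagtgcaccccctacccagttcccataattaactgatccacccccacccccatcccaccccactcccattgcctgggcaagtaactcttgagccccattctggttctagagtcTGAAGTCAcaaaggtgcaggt
Clec4a2: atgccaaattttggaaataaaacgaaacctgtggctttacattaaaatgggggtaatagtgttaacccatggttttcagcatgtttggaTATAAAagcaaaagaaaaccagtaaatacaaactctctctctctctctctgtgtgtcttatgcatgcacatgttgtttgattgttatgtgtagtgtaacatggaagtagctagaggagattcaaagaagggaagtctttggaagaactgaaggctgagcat
The motifs were searched on both strands. The cyclic AMP response element TGACGTCA, the site family to which CREM binds, was in none of the 3 windows and in 1.62% of 27025 RefSeq promoter windows of the same length. The letters TGANGTCA, which also take in the full element and were chosen after the windows had been read, were present as TGATGTCA 36 bases before the start of Lyzl6 and as TGAAGTCA 21 bases before the start of Il31. They occurred in 7.59% of all windows. TATAAA was present 161 bases before the start of Clec4a2, and in 13.0% of all windows. GTTGCC, part of the X-box bound by RFX factors, was in none of the 3 and in 10.5% of all. A match is only the presence of these letters.

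The ranking had no gap at the cutoff. The share of UMIs from the 6 genes ran from 0.449557% and 0.459344% in the highest cell of each library to 0.27815% and 0.288184% in the 500th, and the 501st had 0.278139% and 0.288173%. At rank 1000 the share was still 0.241% and 0.253%. With the higher of both cutoffs in both libraries, 383 and 500 barcodes remained. The median share was 0.302% and 0.315% in the Lyzl-rich cells and 0.0409% and 0.0512% in all deep barcodes. The Lyzl-rich cells are thus the upper end of a continuous range.

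Depth was close to that of the deep barcodes as a whole. The Lyzl-rich cells held a median of 15277.5 and 20603 UMIs, against 16045 and 20180 in all deep barcodes, and 9362179 and 12997753 UMIs in sum. Scrublet called 7 and 1 of them doublets, among 559 and 259 calls in the deep barcodes. Among the Lyzl-rich cells, 13 and 48 had more than 50000 UMIs, and the highest totals were 124872 and 350648. The libraries share 1507 barcode names, 3 of them among the Lyzl-rich cells, and none of the shared names had the same UMI total in both.

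For orientation, 3 further groups of up to 500 deep barcodes per library were ranked in the same way: an early round spermatid group by the Ssxb genes, a late round spermatid group by Cst13, a cystatin-like gene, and a spermatocyte group by meiotic genes. Barcodes that also ranked among the Lyzl-rich cells were taken out of them, which was 4 and 3 of the early, 23 and 11 of the late and none of the spermatocyte group. They left 496 and 497, 477 and 489, and 500 and 500 barcodes. These groups were also chosen by their transcripts, so the comparisons with them are descriptions.

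Each of the 6 genes was higher in the Lyzl-rich cells than in all 3 of these groups. Lyzl6 stood at 732 CPM (715 to 750) and 877 CPM (861 to 893). It was at 209 and 278 CPM in the early group, 468 and 534 CPM in the late group, and 21.3 and 44.0 CPM in the spermatocyte group. Lyzl1 had 608 CPM (592 to 624) and 786 CPM (771 to 802), with 163 and 202 CPM early and 327 and 416 CPM late. Both lysozyme-like genes were thus higher late than early. Iqcf5 was at 848 and 602 CPM, 175 and 125 CPM early and 617 and 458 CPM late. Mbd3l1 was at 407 and 393 CPM, 58.6 and 59.7 CPM early and 282 and 284 CPM late. These genes had a late level nearest to their level in the Lyzl-rich cells. Clec4a2 was at 129 CPM (122 to 137) and 142 CPM (135 to 148), 14.3 and 12.9 CPM early and 50.8 and 54.5 CPM late. Il31 differed from the other 5 in its order. It stood at 350 CPM (338 to 362) and 381 CPM (371 to 392), but was lower in the late group (61.8 and 54.9 CPM) than in the early one (120 and 148 CPM).

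**Figure D1:**
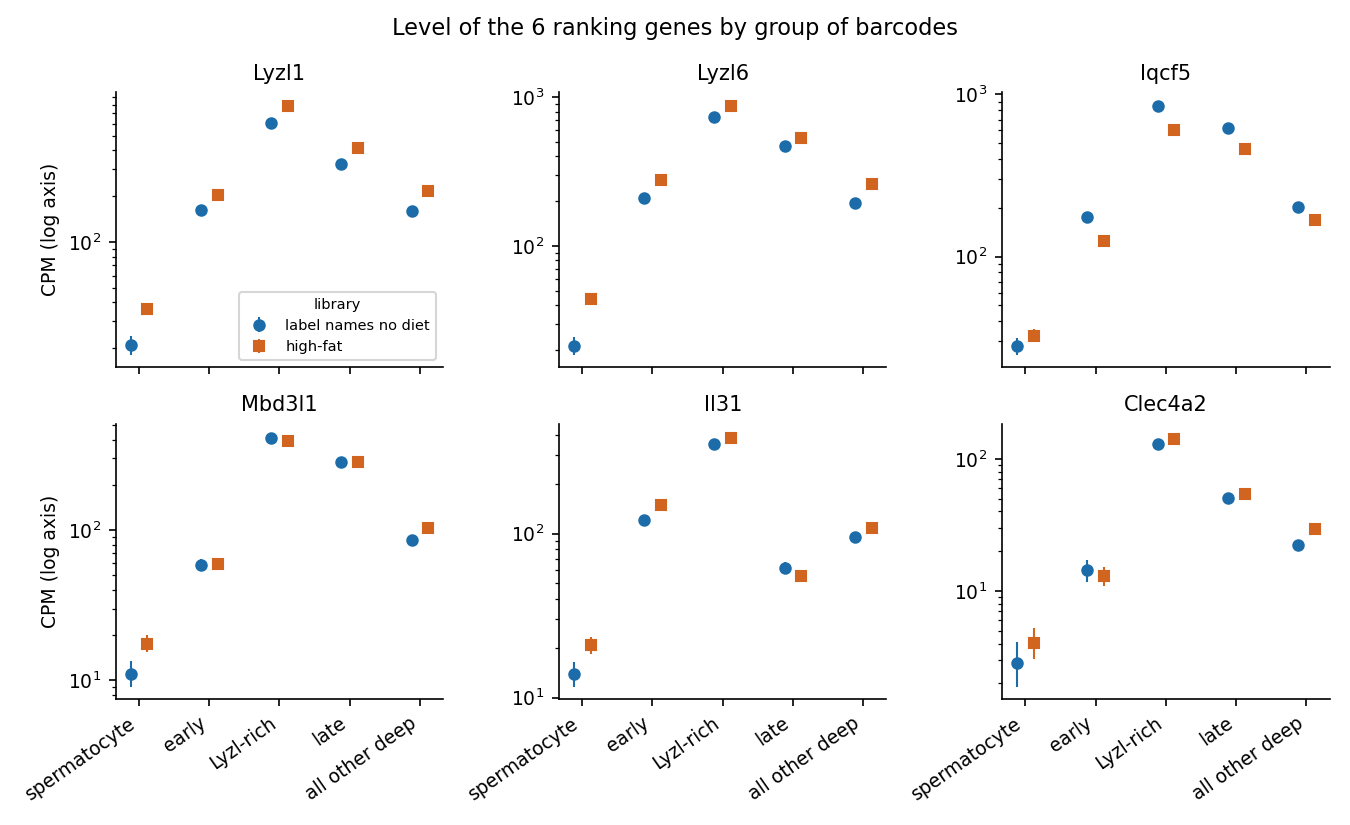
Level of each of the 6 ranking genes in CPM (log axis) in the spermatocyte, early, Lyzl-rich and late groups and in all other deep barcodes, one colour per library, with 95% Poisson bars. Each gene is highest in the Lyzl-rich cells that it helped to choose, and Il31 alone is lower in the late than in the early group.

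Transcripts of the 6 genes were found together in single cells. Since the cells were ranked by the summed share of these genes, this describes the choice and is not a finding. After each barcode was thinned to 5000 UMIs, which left out no Lyzl-rich cell, at least 4 of the 6 genes had a UMI in 490 (98.0%) and 489 (97.8%) of the 500 cells. All 6 had one in 149 (29.8%) and 182 (36.4%), and without thinning in 385 and 450. In the thinned early group, at least 4 genes were found in 136 and 114 barcodes. This was 312 and 321 in the late group and 3 and 7 in the spermatocyte group. Median UMIs from the 6 genes after thinning were 15 and 16 in the Lyzl-rich cells and 3 and 3 in the early group. They were 9 and 9 in the late group and 0 and 1 in the spermatocyte group. Clec4a2 was the gene missed most often: 47.2% and 51.4% of thinned Lyzl-rich cells had a UMI (79.2% and 91.6% without thinning), against 0.8% and 2.0% in the spermatocyte group (3.8% and 9.2%). Il31 had a UMI in 80.6% and 85.0% of thinned cells (97.4% and 98.6% without thinning), against 7.4% and 9.2% in the spermatocyte group (20.0% and 35.6%). Median depths before thinning were 15277.5 and 20603 UMIs in the Lyzl-rich cells and 15195.5 and 21141.5 in the spermatocyte group. The spermatocyte group was more spread in depth, with quartiles of 9559 and 40402 UMIs in the high-fat library against 13788 and 30457 in the Lyzl-rich cells.

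The label of a middle round spermatid was checked against marker lists. Acrv1, which encodes an acrosomal vesicle protein, stood at 888 and 978 CPM in the Lyzl-rich cells, 360 and 348 CPM in the early group and 863 and 917 CPM in the late group. The Ssxb genes, X-linked genes of young spermatids that chose the early group, summed to 7.80 and 6.54 CPM. They were at 230 and 202 CPM in the early group and 4.96 and 3.27 CPM in the late group. Elongating spermatid markers, among them the protamine and transition protein genes, summed to 10362 and 10215 CPM. Their sums were 2479 and 2684 CPM in the early group and 41870 and 48315 CPM in the late group. The 6 pachytene spermatocyte markers summed to 855 and 959 CPM, against 2195 and 2127 CPM in the spermatocyte group. Piwil1, Mybl1, Ly6k, Pou5f2 and Tbpl1 were lower than in that group, with Tbpl1 the closest at 403 and 466 CPM against 568 and 623 CPM. Spag6 was higher, at 327 and 356 CPM against 17.3 and 22.9 CPM. Spag6 and Tbpl1 are also among the 9 general round spermatid markers, of which 8 were above the other deep barcodes in each library. The exception was Tbpl1, which was at 784 and 809 CPM in the other deep barcodes and 869 and 947 CPM in the early group. By the sum of the elongating spermatid markers, the Lyzl-rich cells lay between the early and the late group. The Ssxb genes chose the early group, so their lower level in the Lyzl-rich cells is no support for the label.

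Along the ranking the marker levels changed in a similar but not identical order in the libraries. In bins of 500 barcodes, Acrv1 was at 888 and 978 CPM in the first bin (the Lyzl-rich cells) and at 440 and 232 CPM in the bin that starts at rank 3501. Tnp1, the gene of transition protein 1, was at 1394 and 1248 CPM in the first bin and highest in the bin from rank 2001 to 2500, at 2964 and 4147 CPM. Cst13 was highest in the same bin, at 215 and 256 CPM, against 62.5 and 48.1 CPM in the Lyzl-rich cells. Prm1 was highest in the bin from rank 2001 in the first library (3008 CPM) and from rank 2501 in the high-fat library (5940 CPM). The Ssxb genes were lowest in the Lyzl-rich cells. Of the bins shown, they were highest from rank 3501 in the first library (73.5 CPM). In the high-fat library they were highest from rank 3001 (83.4 CPM, then 78.1 CPM from rank 3501). Bins further down the ranking thus held more of the later and then more of the earlier spermatid markers.

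**Figure D2:**
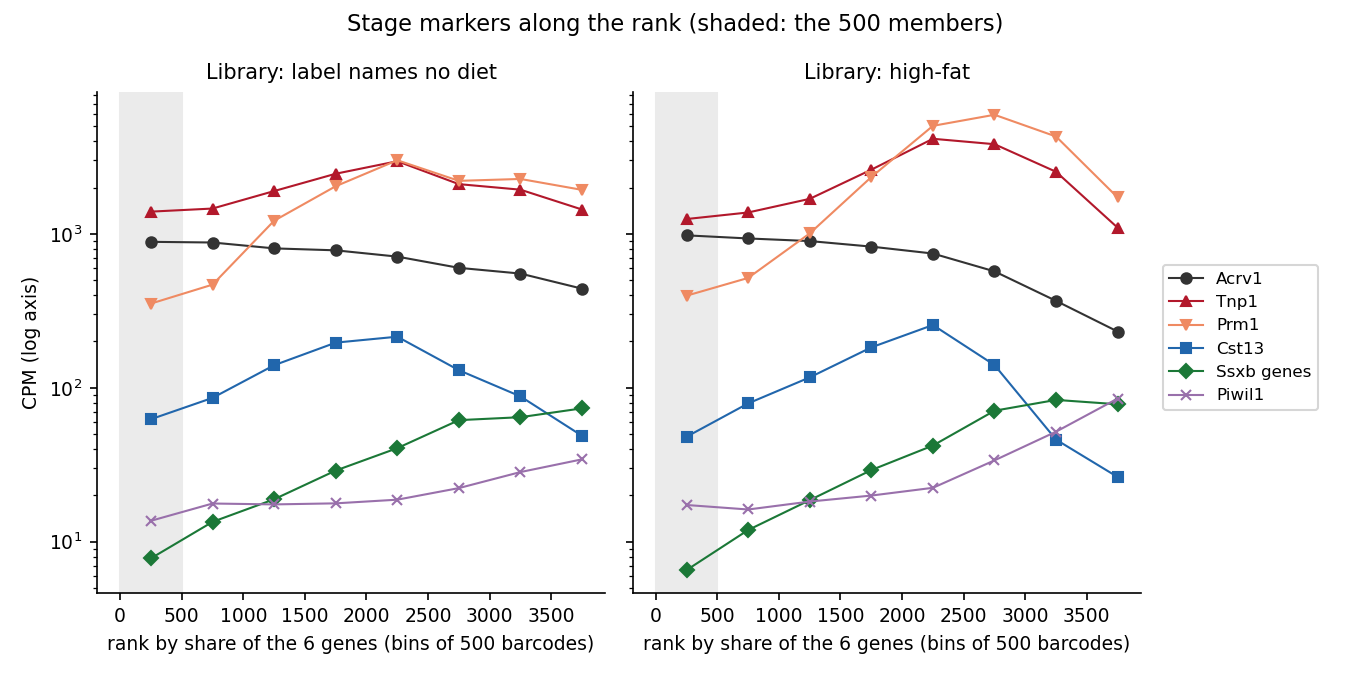
CPM (log axis) of Acrv1, Tnp1, Prm1, Cst13, the summed Ssxb genes and Piwil1 in successive bins of 500 deep barcodes ranked by their share of the 6 genes, one panel per library, with the Lyzl-rich bin shaded. Late markers peak beyond rank 2000 in both libraries, while the Ssxb genes are lowest in the shaded bin.

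Markers of other testis cell types were mostly at low levels in the Lyzl-rich cells. Leydig markers summed to 1.71 and 1.54 CPM and macrophage markers to 5.13 and 2.85 CPM. Sertoli markers summed to 23.9 and 35.9 CPM, against 38.7 and 105 CPM in the other deep barcodes. Defb19 was the highest of them at 11.4 and 18.0 CPM, and Sox9 had 0.32 and 0.385 CPM. Of 9 spermatogonia markers, 2 were above the other deep barcodes in each library. Gfra1, 1 of them, was at 30.2 and 27.2 CPM against 11.5 and 9.24 CPM. Of 7 stroma markers, 3 and 2 were above the other deep barcodes, with Igf1 at 8.01 and 12.8 CPM against 3.02 and 4.37 CPM. Endothelial markers summed to 106 and 23.9 CPM, of which 101 and 18.5 CPM were Flt1, while Pecam1, a defining endothelial gene, was at 0 and 0.462 CPM. Flt1 was higher still in the late group, at 223 and 43.3 CPM. Since Il31 and Clec4a2 are known from immune cells, immune markers are given beside them. Lyz2 had no UMI in either library, C1qa was at 0 and 0.0769 CPM, Cd4 was at 0 and 0.0769 CPM, and Itgax was at 0 in both. Ptprc, the pan-leukocyte gene, was at 4.49 and 2.46 CPM against 1.30 and 1.18 CPM in the other deep barcodes, and C1qb, which made up most of the macrophage sum, at 3.52 and 1.62 CPM against 2.21 and 1.47 CPM. Both genes were higher still in the late group, Ptprc at 7.58 and 4.12 CPM and C1qb at 22.6 and 10.3 CPM. The part of immune cells in these levels was not tested. Cd3d, at 33.8 and 28.9 CPM, was near its level in the other deep barcodes (26.7 and 30.3 CPM). Of the receptors of the cytokine, Il31ra was the only one besides Il31 itself that reached 20 CPM, at 21.7 and 20.1 CPM against 26.5 and 22.7 CPM in the other deep barcodes. Of 8 Clec4 lectin genes in the files, Clec4a2 alone reached 20 CPM. This family has closely similar members, between which the counting could have split reads.

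Against the other deep barcodes, 1242 of 6085 genes (those with at least 20 CPM on either side in each library) were at least 2-fold higher in the Lyzl-rich cells in both libraries (20.4%), and 1057 were at least 2-fold lower (17.4%). The median log2 ratio of all these genes was −0.27 and −0.26. The cells were chosen from the same counts, so these shares stand as the background of the gene groups below, with no reading of their own.

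The lysozyme family had 5 measured genes, all at least 2-fold higher, with Lyzl1 and Lyzl6 among them. Of the 3 that did not choose the cells, Lyzl4 was at 509 and 442 CPM against 178 and 153 CPM in the other deep barcodes. Spaca3, which encodes an acrosomal lysozyme-like protein, was at 915 and 964 CPM against 302 and 320 CPM. Spaca5, a further member of that kind, was at 93.5 and 127 CPM against 38.1 and 47.5 CPM. Lyzl4 was above both neighbouring groups (240 and 185 CPM early, 286 and 232 CPM late), whereas Spaca3 was at 708 and 715 CPM in the late group. Lyz1, Lyz2 and Lalba, the lysozymes and lactalbumin of other tissues, did not reach 20 CPM. Of the 5 Iqcf genes, 4 were at least 2-fold higher, with Iqcf5 among them. Iqcf1 was at 507 and 471 CPM, 24.0 and 40.4 CPM early and 993 and 917 CPM late, so that it was higher still in the late group. Iqcf6 had the same order from a lower level, with 46.9 and 29.5 CPM, 3.26 and 5.26 CPM early and 210 and 204 CPM late. Iqcf5 and Iqcf3 lie next to each other on opposite strands, and the strand used in counting is not given in the sources used here. Of 10 genes of the Mbd3-like and NuRD list, Mbd3l1 was the one at least 2-fold higher, and 3 were at least 2-fold lower.

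Of 27 acrosome genes, 12 were at least 2-fold higher and none lower, with a median log2 ratio of 0.82 and 0.83. Spaca1, an acrosomal membrane protein gene, was at 881 and 971 CPM, 386 and 385 CPM early and 839 and 847 CPM late. Spaca4 was at 1030 and 953 CPM against 295 and 303 CPM in the other deep barcodes. Acr, the gene of the protease acrosin, was about level at 421 and 379 CPM against 417 and 365 CPM. Zpbp2, whose product binds the zona pellucida, had the opposite direction, with 344 and 309 CPM, 696 and 604 CPM early and 209 and 170 CPM late. Prss37, a protease-like gene, was at 24.0 and 22.6 CPM, 2.73 and 7.26 CPM early and 283 and 315 CPM late. Genes of the acrosome were therefore not all highest in the same group.

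Of 10 genes for sperm-egg binding and fusion, 9 were at least 2-fold higher in the Lyzl-rich cells, with median log2 ratios of 1.60 and 1.45. Spam1, the gene of the sperm hyaluronidase, was at 103 CPM (96.6 to 110) and 124 CPM (118 to 130), above both the early group (33.6 and 36.3 CPM) and the late group (22.4 and 24.0 CPM). Tmem95 was at 59.4 and 47.0 CPM, with 21.0 and 14.2 CPM early and 17.9 and 12.6 CPM late. Both genes were thus highest in the Lyzl-rich cells. Llcfc1 was at 902 and 1199 CPM against 280 and 397 CPM in the other deep barcodes. Izumo1, which encodes the sperm ligand of the egg receptor Juno, was at 129 and 162 CPM, 51.1 and 52.1 CPM early and 169 and 201 CPM late. The exception was Izumo4, at 261 and 321 CPM against 401 and 478 CPM. Of 18 Adam protease genes, many of which act in sperm maturation, 10 were at least 2-fold higher and none lower, with a median of 1.26 in both libraries. Among the Adam genes with at least 100 CPM the medians were instead −0.32 and −0.26. Adam1a was at 181 and 199 CPM against 52.6 and 60.4 CPM, while Adam1b, its close relative, was at 34.5 and 38.0 CPM against 72.7 and 74.5 CPM. Reads of such relatives could have been split in counting.

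Of 9 kinase genes of the testis, 7 were at least 2-fold higher, with medians of 1.34 and 1.30. Tssk5, a testis-specific serine kinase gene, was at 30.9 and 32.7 CPM, 3.52 and 4.20 CPM early and 2.62 and 2.49 CPM late. Tssk6 instead was at 63.1 and 58.2 CPM, 5.60 and 9.65 CPM early and 329 and 400 CPM late. Camk4, a calcium and calmodulin-dependent kinase gene, was at 185 and 140 CPM against 40.1 and 40.0 CPM in the other deep barcodes. Within this family one gene was therefore highest in the Lyzl-rich cells and another in the late group.

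Of 16 spermatid transcription factor genes, 5 were at least 2-fold higher and 3 lower. Fhl5, the coactivator of CREM in germ cells, was at 479 and 457 CPM, 44.5 and 47.0 CPM early and 779 and 733 CPM late. Crem itself was at 720 and 695 CPM against 506 and 475 CPM in the other deep barcodes. Mybl1, a meiotic activator gene, was at 6.62 and 8.16 CPM against 27.9 and 27.4 CPM. Of 10 spermatid chromatin genes, 3 were higher and 3 lower. Prm3 was at 1843 and 1711 CPM, 268 and 255 CPM early and 2452 and 2154 CPM late. H1fnt, a linker histone gene of spermatids, was at 590 and 621 CPM, 24.4 and 50.7 CPM early and 1285 and 1226 CPM late. Hist1h1t, the testis linker histone gene, was lower at 10.5 and 13.3 CPM against 44.9 and 49.9 CPM. The protamine gene Prm1 was at 352 and 397 CPM, 131 and 197 CPM early and 8184 and 10662 CPM late. Of 16 genes of translation control, 1 was higher and 4 lower. The higher one was Samd4, an RNA-binding repressor gene, at 552 and 548 CPM against 145 and 193 CPM. Piwil1, the gene of a PIWI protein of the piRNA pathway, was at 13.7 and 17.3 CPM against 93.1 and 102 CPM.

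The genes of the sperm tail varied. Of 18 genes of outer dense fibres and fibrous sheath, 8 were at least 2-fold higher and none lower, among them Odf3 (716 and 861 CPM against 182 and 255 CPM). Of 13 CatSper channel genes, which form the calcium channel of the tail, 6 were higher and 1 lower, and the medians were −0.38 and −0.36. Catsper3 was at 257 and 283 CPM against 79.7 and 90.8 CPM, and Catsperg2 at 16 and 14.8 CPM against 41.3 and 32.6 CPM. Of 32 axoneme genes, 3 were higher and 8 lower. Dnah9 was at 65.6 and 55.2 CPM against 15.6 and 15.8 CPM, and Dnah2 at 12.5 and 11.5 CPM against 50.2 and 45.0 CPM. Dynein heavy chain genes thus lay on both sides.

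Genes of the endoplasmic reticulum, of respiration and of protein synthesis were read against the shares of all genes given above. Of 14 endoplasmic reticulum stress genes, 5 were at least 2-fold lower and 2 higher. Hspa5, the gene of the main chaperone of that compartment, was at 42.4 CPM (38.3 to 46.8) and 31.7 CPM (28.7 to 34.9), 302 and 256 CPM early and 52.1 and 37.4 CPM late. Hsp90b1 was at 57.7 and 53.7 CPM against 290 and 280 CPM. The higher ones were Creb3l4, a spermatid transcription factor gene of that compartment (779 and 870 CPM against 251 and 299 CPM), and Pdilt, a testis disulphide isomerase gene (314 and 276 CPM against 114 and 111 CPM). Of 42 oxidative phosphorylation genes, 8 were lower, a share near the lower share of all genes. Among them was Sdhd of complex II at 6.73 and 4.85 CPM against 43.3 and 45.8 CPM. Of 37 ribosomal protein genes, 4 were lower, a share below that of all genes, such as Rps27a at 53.8 and 63.5 CPM against 312 and 339 CPM. In neither list was any gene higher, against 20.4% of all genes. The median log2 ratios were −0.45 and −0.48 for oxidative phosphorylation and −0.41 and −0.37 for ribosomal proteins, against −0.27 and −0.26 for all genes. Of 8 genes of apoptosis and p53, 1 was higher and 3 lower. Diablo, whose product releases caspases from inhibition, was at 112 and 80.8 CPM against 736 and 613 CPM. Of 22 energy enzyme genes of germ cells, 4 were higher and 3 lower. Gapdhs, the glycolytic enzyme gene of sperm, was at 682 and 831 CPM against 226 and 331 CPM, and Slc2a3, a glucose transporter gene, was at 120 and 117 CPM against 421 and 471 CPM.

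Lipid genes, which bear on the diet of the study, were few. Of 44 genes on the fatty acid and lipid list, 15 were measured, of which 5 were at least 2-fold higher and 3 lower. Plin2, which encodes the coat protein of lipid droplets, was at 142 CPM (135 to 150) and 169 CPM (162 to 176) against 34.1 and 43.6 CPM, a ratio of 4.17 (3.93 to 4.43) and 3.88 (3.70 to 4.07). It was at 28.3 and 30.7 CPM in the early group and 69.7 and 62.2 CPM in the late group, so that its level was highest in the Lyzl-rich cells. Dgat2, which makes triglycerides, was at 343 and 410 CPM against 116 and 156 CPM, and Fabp12, a fatty acid binding protein gene, at 253 and 209 CPM against 70.7 and 66.6 CPM. Hadhb, of mitochondrial fatty acid breakdown, was at 11.3 and 11.4 CPM against 69.2 and 66.1 CPM. Of 9 cholesterol genes, 1 was higher and none lower.

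The genes outside the ranking set with the highest ratio to the other deep barcodes were mostly unnamed loci. Among the named ones, Tmem81 was at 57.6 and 64.5 CPM against 12.0 and 16.1 CPM, a ratio of 4.81 (4.37 to 5.29) and 3.997 (3.70 to 4.32). It encodes a sperm membrane protein, and it overlaps the gene Rbbp5. Spsb1, a ubiquitin ligase adaptor gene, was at 149 and 154 CPM against 33.8 and 40.6 CPM. Slc31a2, a copper transporter gene, was at 74.4 and 65.2 CPM against 16.5 and 16.5 CPM. 1700029E06Rik was at 62.3 and 140 CPM against 11.6 and 32.9 CPM, and 1700109G15Rik at 214 and 58.4 CPM against 46.4 and 15.4 CPM. These genes were picked for a high ratio in both libraries, and the last 2 differed in level between them.

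The order of the early, Lyzl-rich and late groups was then read for 6362 genes with at least 20 CPM in one of them. The Lyzl-rich cells were at least 1.5-fold above both the early and the late group in both libraries for 155 genes (2.44%), of which Lyzl1, Lyzl6, Il31 and Clec4a2 had chosen the cells, and below both for 37 (0.582%). A further 641 genes (10.1%) were in between and higher late, and 436 (6.85%) in between and higher early. The level in the Lyzl-rich cells was above the early group alone for 1100 genes (17.3%), Iqcf5 and Mbd3l1 among them, and below it alone for 1204 (18.9%). Fewer genes were above the late group alone (335, 5.27%) or below it alone (227, 3.57%). By this count, more genes separated the Lyzl-rich cells from the early group than from the late one.

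Apart from the ranking genes, 12 genes of the lists were above both groups, among them Spam1, Tmem95, Lyzl4, Plin2, Tssk5, Adam1a and Dcst2. Keap1, the gene of the sensor that restrains the oxidative stress factor NRF2, was the one list gene below both, at 28.1 and 23.7 CPM, with 43.1 and 39.8 CPM early and 62.7 and 51.6 CPM late. Outside the lists, Slc39a12, a zinc transporter gene, was at 38.6 and 40.5 CPM, 6.64 and 4.68 CPM early and 7.21 and 6.92 CPM late. Slc4a2, an anion exchanger gene, was at 49.99 and 44.9 CPM, 13.4 and 11.7 CPM early and 8.24 and 7.62 CPM late. Both were chosen after their values were seen.

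The lowest transcripts against the early group besides Ssxb1 and Ssxb2 were Slc2a8, Hspa5, Yipf5 and Polr2e. Slc2a8, a glucose transporter gene, was at 10.0 and 8.85 CPM against 82.3 and 73.0 CPM, and in the late group at 12.7 and 8.56 CPM. Polr2e, a shared subunit of the RNA polymerases, was at 14.3 and 12.5 CPM against 91.4 and 86.2 CPM. Ssxb2 was at 2.24 and 2.39 CPM against 77.2 and 70.4 CPM. Among the highest against the early group, Zfp362, a zinc finger gene, was at 61.4 and 53.6 CPM against 3.26 and 2.87 CPM. Against the late group, Smco4 had the highest ratio among genes with at least 50 CPM, at 209 and 206 CPM against 21.3 and 19.2 CPM, and the early group had nearly the same level (215 and 210 CPM). At the other end, Agpat2, an enzyme of phospholipid synthesis, was at 1.71 and 1.92 CPM against 75.9 and 78.8 CPM late. Cd46, which encodes a complement regulator found on the acrosome, was at 2.14 and 2.31 CPM against 95 and 89.5 CPM. The genes of this paragraph were picked for their extreme ratios, so their low or high levels follow from that choice. Other genes that were higher in the late group were not low in the Lyzl-rich cells, such as Prm3 at 1843 and 1711 CPM.

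**Figure D3:**
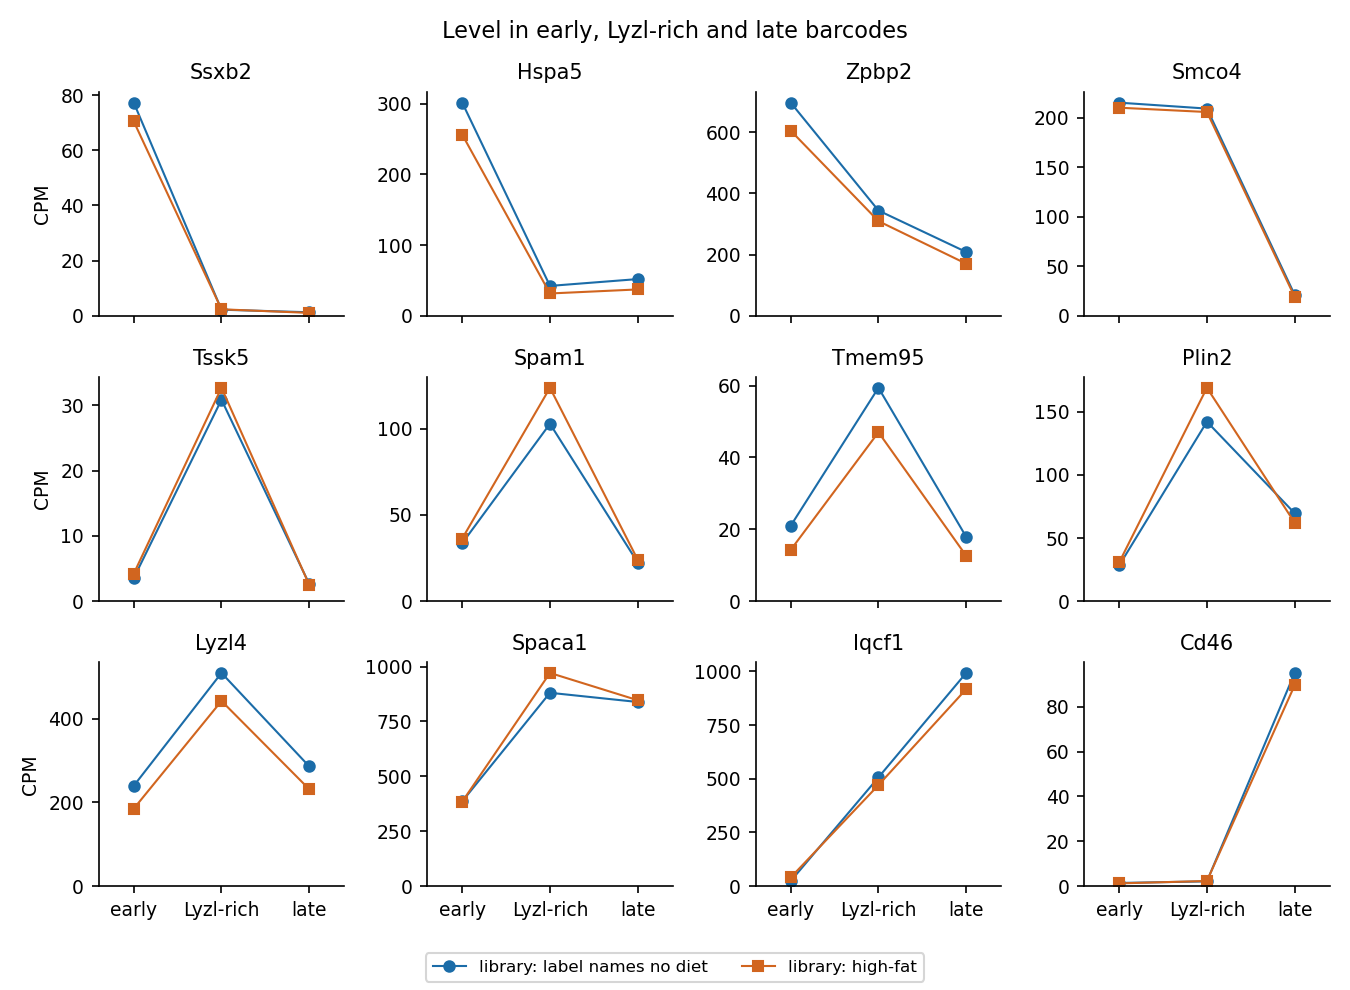
CPM on linear axes from 0 for 12 genes in the early, Lyzl-rich and late groups, one line per library. Ssxb2, Hspa5 and Zpbp2 are highest early, Spam1, Tmem95, Plin2, Lyzl4 and Tssk5 are highest in the Lyzl-rich cells, and Iqcf1 and Cd46 are highest late.

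The 10 genes with the most UMIs in the Lyzl-rich cells were Ldhc, Meig1, Gm42418, Ropn1l, Fabp9, Gstm5, Fam229b, CT010467.1, Pebp1 and Spa17. Ldhc, the lactate dehydrogenase gene of the testis, was at 8613 and 7921 CPM. Meig1, a gene needed for sperm formation, was at 9117 and 7871 CPM, and Ropn1l, a gene of the fibrous sheath and radial spokes, at 5175 and 5900 CPM. Fabp9, a fatty acid binding protein gene of the perforatorium of the sperm head, was at 4747 and 4366 CPM. Gm42418 was at 6028 and 5355 CPM, and Gstm5, a glutathione transferase gene, at 4857 and 4291 CPM. These levels compare UMI counts, which take no account of transcript length.

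Among the Lyzl-rich cells themselves, spread was read from the Fano factor (variance over mean) of counts thinned to 5000 UMIs. Its median was 1.07 and 1.08 over 1783 genes with a mean of at least 0.5, where counting alone gives about 1. At such low counts, moderate differences between cells raise it little, so a value near 1 does not show that cells were alike. Of 1783 genes, 4 of the 6 with the highest Fano factors were late chromatin genes, and the others were Gm42418 (6.28 and 6.93) and Eif5b (2.07 and 2.504). Prm1 had a Fano factor of 11.8 and 7.57, with a median of 1 UMI in both libraries and a highest cell of 80 and 50 UMIs. Prm2 had 10.2 and 4.69, Tnp2 5.08 and 5.73 and Tnp1 3.14 and 3.35. Acrv1 had 1.21 and 1.59. A few of the Lyzl-rich cells thus held many protamine transcripts, while most held few.

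**Figure D4:**
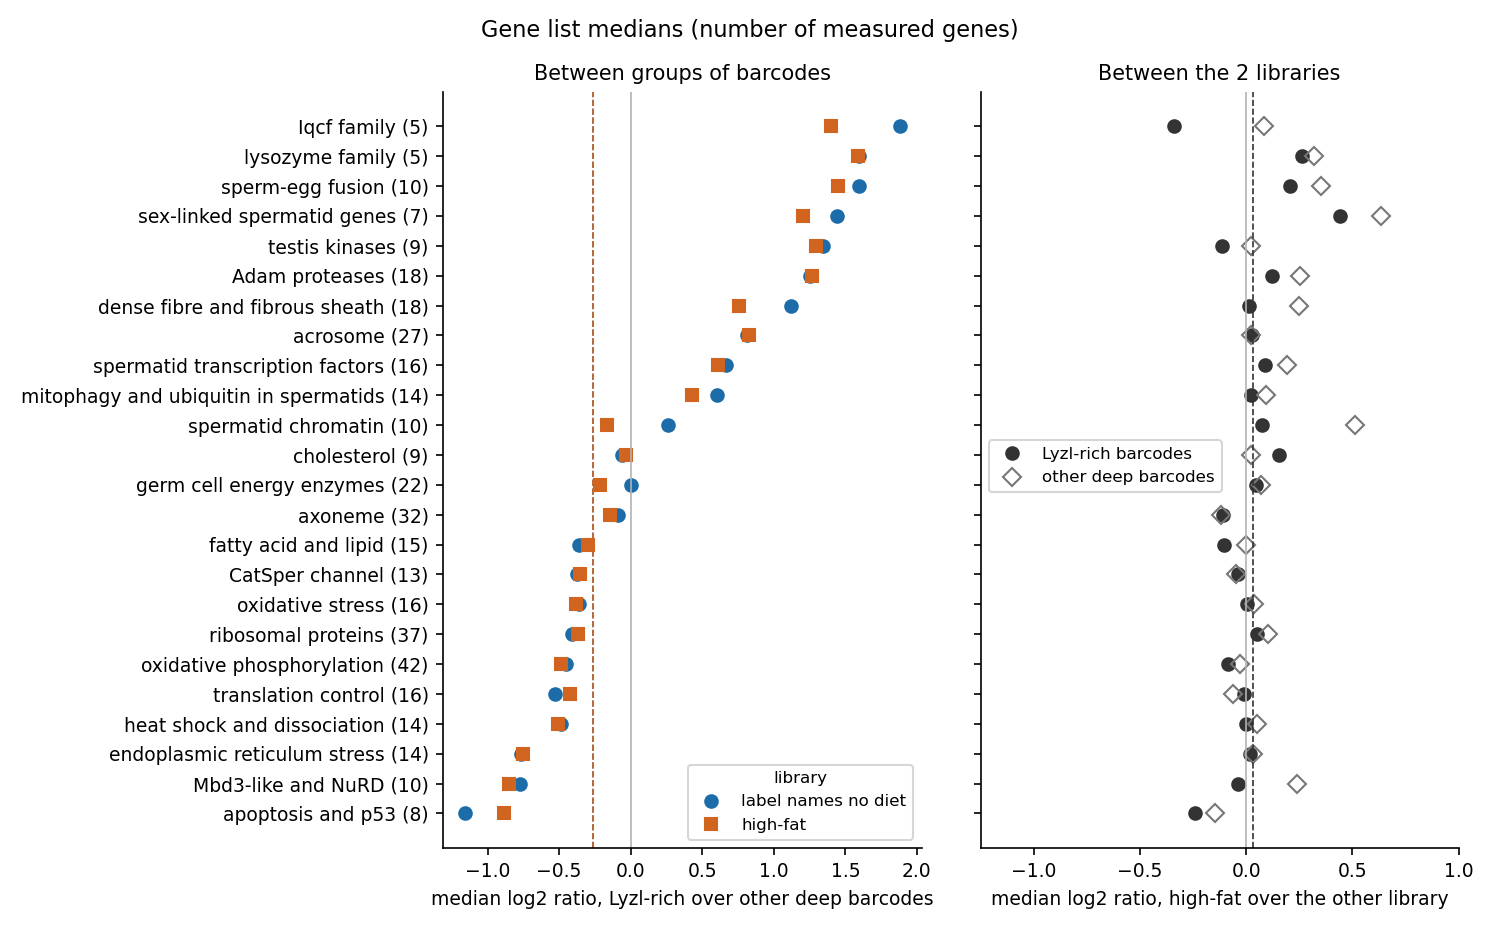
Left, the median log2 ratio of each gene list in the Lyzl-rich cells over the other deep barcodes, one point per library, with the median of all genes dashed. Right, the median log2 ratio of the high-fat over the first library in the Lyzl-rich cells and in the other deep barcodes. In the left panel, the fusion, lysozyme, kinase and Adam lists lie right of the dashed lines. The apoptosis, NuRD and endoplasmic reticulum stress lists lie left of them. The lysozyme, Iqcf and NuRD lists include genes that chose the cells.

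Between the libraries, the Lyzl-rich cells of the high-fat library had 656 of 5845 genes at least 1.5-fold higher (11.2%) and 492 at least 1.5-fold lower (8.42%). The other deep barcodes had 613 of 6238 (9.83%) and 395 (6.33%). Of the 1148 genes past 1.5-fold in the Lyzl-rich cells, 882 (76.8%) were past 1.5-fold in the same direction in the other deep barcodes, which come from the same libraries. The median log2 ratio of all genes in the Lyzl-rich cells was 0.03. Most differences in these cells were therefore also present in the rest of each library. The Lyzl-rich cells of the high-fat library were also deeper (medians above), and the part of depth in these ratios was not tested beyond thinning, under which both counts stayed within 1.5 times their size.

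The ranking genes did not all differ between the libraries in the same direction. Lyzl1 had a ratio of 1.29 (1.25 to 1.34) and Lyzl6 of 1.20 (1.16 to 1.23), high-fat over first, while Iqcf5 had 0.709 (0.687 to 0.732). Mbd3l1 had 0.964 (0.924 to 1.01), Il31 1.09 (1.04 to 1.14) and Clec4a2 1.10 (1.02 to 1.18). In the other deep barcodes the log2 ratio was 0.45 for Lyzl1, 0.44 for Lyzl6 and −0.25 for Iqcf5, against 0.37, 0.26 and −0.50 in the Lyzl-rich cells. The early and late groups had the same signs for these 3 genes, with 0.32 and 0.35 for Lyzl1, 0.41 and 0.19 for Lyzl6 and −0.50 and −0.43 for Iqcf5. Since the cells were ranked by the summed share of the 6 genes, these ratios are not independent of each other.

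The list medians of the ratio between the libraries ran from −0.34 to 0.44 in log2, against 0.03 over all genes. The lowest was the Iqcf family (0.085 in the other deep barcodes), which includes Iqcf5, and the highest the sex-linked spermatid genes (0.63 there). None of the 27 acrosome genes, 10 fusion genes or 9 testis kinase genes was past 1.5-fold in either direction. Over all genes, 11.2% were higher and 8.42% lower by that fold. Among the lipid genes, Pnpla2, the main triglyceride lipase, was at 134 and 252 CPM, a ratio of 1.88 (1.76 to 2.00). Cpt2, of the carnitine shuttle into mitochondria, was at 12.9 and 23.9 CPM, a ratio of 1.85 (1.49 to 2.30). The log2 ratio of Pnpla2 was 0.91 in the Lyzl-rich cells and 0.84 in the other deep barcodes, and that of Cpt2 was 0.88 and 0.28. These 2 of 14 measured lipid genes were past 1.5-fold, both higher, with 11.2% of all genes past that fold in this direction. Sod2, the mitochondrial superoxide dismutase gene, was at 349 and 211 CPM, and Prdx1, a peroxiredoxin gene, at 25.0 and 47.5 CPM, a pair of opposite directions in the oxidative stress list. Rsph1, a radial spoke gene of the axoneme, was at 2401 and 882 CPM, with a log2 ratio of −1.44 against −1.49 in the other deep barcodes.

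The largest ratios between the libraries came from genes that were nearly absent from one of them. Rd3 had 1 UMI in the Lyzl-rich cells of the first library and stood at 71.2 CPM in those of the high-fat one, a ratio of 667 with a counting interval of 119 to 26373. In the other deep barcodes of the first library it had 55 UMIs, and its log2 ratio there was 7.39 against 9.38 in the Lyzl-rich cells. 1700101I19Rik had no UMI in any barcode of the first library with at least 5000 UMIs. It stood at 115 CPM in the Lyzl-rich cells of the high-fat one. Gip, the gene of a gut hormone, was at 2.03 and 79.2 CPM, a ratio of 39.0 (24.9 to 65.1), with a log2 ratio of 5.29 against 5.27 in the other deep barcodes. In the opposite direction, Rag1, the gene of the recombinase of lymphocytes, was at 149 and 0.615 CPM, with a log2 ratio of −7.92 against −7.17. Gm6218, a processed pseudogene, was at 153 and 0.154 CPM. Rpl13 was at 45.6 and 481 CPM and Atpif1 at 3054 and 939 CPM. For Gip the ratio was thus of like size in the cells outside the Lyzl-rich set, while that of Rag1 lay further from 0 in the Lyzl-rich cells, by 0.75 on the log2 scale. Rag1 overlaps B230118H07Rik, and reads of pseudogenes can be shared with their parent genes, so their assignment is uncertain.

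A few genes had a ratio between the libraries in the Lyzl-rich cells that was not that of the other deep barcodes. Ncoa4, which encodes the receptor that delivers ferritin for breakdown, was at 18.9 and 147 CPM, a ratio of 7.75 (6.64 to 9.09). Its log2 ratio was 2.95, against 1.07 in the other deep barcodes, 0.51 in the early group and 3.21 in the late group. Bloc1s6, a gene of lysosome-related organelles, was at 125 and 1.77 CPM, with a log2 ratio of −6.14 against −2.16. Nkx6-2, a homeobox gene, was at 209 and 35.2 CPM in the Lyzl-rich cells but at 50.7 and 54.4 CPM in the early group. Its log2 ratio was −2.57 in the Lyzl-rich cells, −2.77 in the late group and −0.51 in the other deep barcodes. Lmnb1, the lamin B1 gene, had −3.26 against −0.98, and Rnaseh2b −5.57 against −3.51. For Ncoa4 and Nkx6-2 the ratio in the late group was thus nearer to that in the Lyzl-rich cells than the ratio in the early group was. Whether these ratios differ between cell groups beyond the spread between animals was not tested. Ncoa4, Bloc1s6, Nkx6-2 and Rnaseh2b each overlap another gene in the annotation, and the strand of counting is not given in the sources used here. Of the genes past 1.5-fold, 45 of the 656 higher and 99 of the 492 lower exceeded the ratio in the other deep barcodes by a further 1.5-fold.

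**Figure D5:**
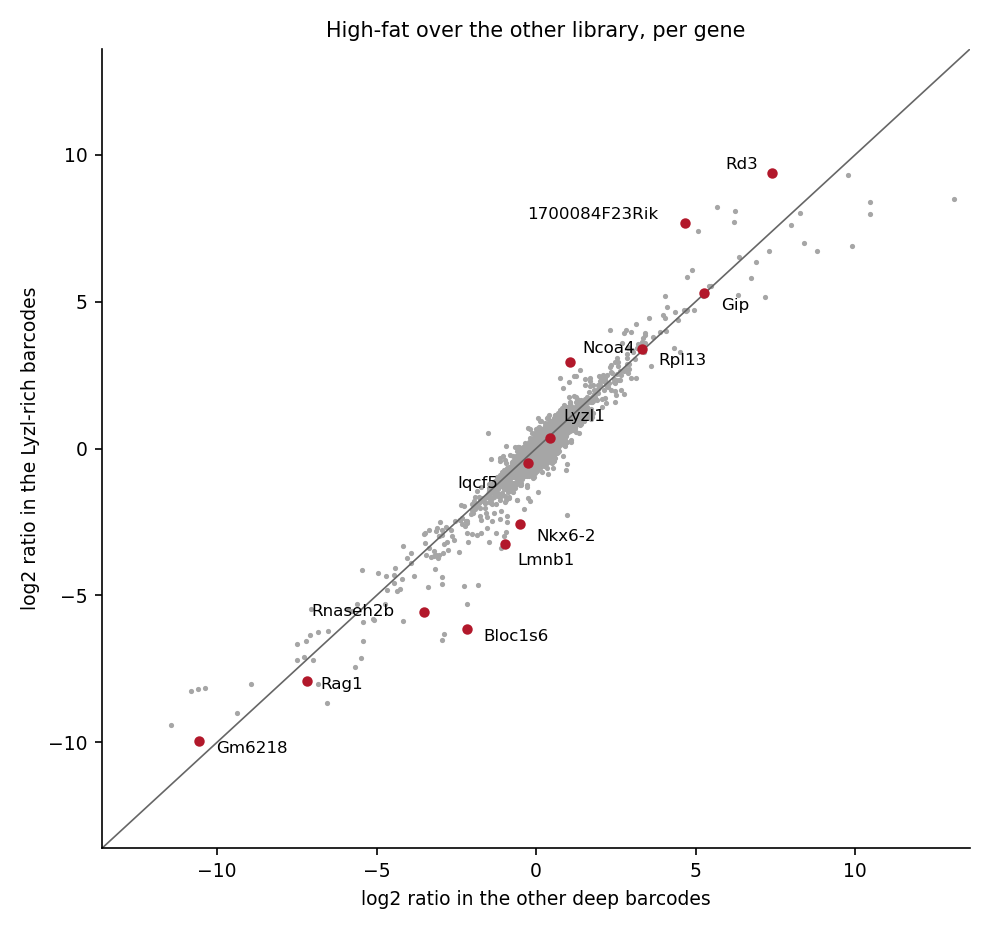
Log2 ratio of the high-fat over the first library for each gene, in the other deep barcodes (horizontal) and in the Lyzl-rich cells (vertical), with the diagonal of equal ratios. Gip lies near the diagonal, while Ncoa4 lies above it and Bloc1s6, Nkx6-2 and Lmnb1 below it.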

How the data were processed

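Single-cell RNA sequencing covered 2 libraries of mouse testis. The deposited values are raw counts of UMIs per gene and barcode, written by PISA 1.0 per the file headers, while the submitters' processing notes name Cell Ranger 2.1.1. Aligner, genome build, annotation, strand setting and barcode filter were not given in the sources used here. Smallest barcode totals were 1000 and 1025 UMIs, so barcodes had been filtered before deposit. The first library had 13805 barcodes and the high-fat library 12661.

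Barcodes were ranked and counts summed per group and library in Python 3.11.15 (numpy 2.4.6, scipy 1.17.1, pandas 2.3.3). Genes needed 20 CPM in either of the compared groups. Folds of 2 (between cells) and 1.5 (between libraries and in the stage order) describe sizes, not tests. Doublets were called per library with Scrublet in scanpy 1.11.5 (expected rate 6%) and kept, and leaving them out was an alternative. edgeR 4.0.16 served only for an alternative scaling of the counts. Scripts were tested on simulated data. Figures used matplotlib 3.10.9.

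The members, markers and gene lists were chosen with earlier results of these data known. Genes were named by rank of ratio or level at 50 CPM or more, and from the lists as the highest, the lowest or the most abundant. Other list genes, and the stage order, were chosen after values were seen.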

Additional observations from a re-analysis of the deposited data

Results flagged for a closer look

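In 4 of the named genes, the Lyzl-rich cells lay at least 1.5-fold from the other deep barcodes in both libraries, but on opposite sides. Further named genes, such as Nkx6-2 (1.53 and −0.54), changed side by less than that fold in at least 1 library. The log2 ratio of 1700084F23Rik was −1.68 in the first library and 1.31 in the high-fat library. The gene was at 0.534 and 109 CPM in the Lyzl-rich cells. In the first library this rested on 5 UMIs, and the ratio of 0.313 had an interval of 0.101 to 0.737. The log2 ratio of Ncoa4 was −0.86 and 1.02. That of Bloc1s6 was 1.82 and −2.16, and that of Lmnb1 was 1.32 and −0.96. The difference between the libraries was not tested, since each is 1 sample.

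Barcodes under 5000 UMIs were left out of the ranking, and they too held transcripts of the 6 genes. There were 4060 such barcodes in the first library and 5095 in the high-fat library. The 6 genes made up 0.0794% (0.0775 to 0.0813) and 0.0941% (0.0923 to 0.0959) of their UMIs, and 169 and 184 of these barcodes had a share at or above that of the last Lyzl-rich cell.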

How the results depend on the processing

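Results were recomputed with 250 or 1000 members, with other smallest UMI totals, without some ranking genes, with equal weight per barcode, thinned, without called doublets, without the barcode of most UMIs, at 1 common cutoff, with 2 other scalings and with other smallest levels. Counts followed the smallest level of a gene. At 100 CPM, 541 genes were higher and 210 lower than in the other deep barcodes, 157 were higher and 102 lower in the high-fat library, and 43 were above and 5 below both the early and the late group. At 5 CPM these were 1873, 2156, 1462, 1241, 271 and 95. At 100 CPM the Adam medians reversed to −0.32 and −0.26, and with 1000 members the Adam median in the high-fat library was 1.48. Ranked without Lyzl1 and Lyzl6, the spermatid chromatin median between libraries was −0.20. With the early, late and next-ranked groups taken out of the comparison barcodes, medians were 2.03 for the lysozyme family (high-fat library), 2.49 and 2.20 for Iqcf, 2.05 and 1.95 for fusion, 1.63 and 1.26 for dense fibre, 1.61 for Adam (high-fat library), 1.92 and 1.69 for sex-linked genes and −0.45 for ribosomal proteins (first library). Single genes that reversed were Gm11634 between libraries (−0.37 with 250 members, −1.48 without Lyzl1 and Lyzl6), Rd3 in the first library (0.24 without Clec4a2, 1.99 thinned) and Hmgb1-rs17 in the first library (0.0082 with those groups taken out). The cause of these shifts was not tested. The lysozyme and Iqcf lists include genes that chose the cells. Over all alternatives, 36 of 2221 log2 ratios of single genes to the other deep barcodes and 37 of 1200 between the libraries changed sign, as did 22 of 668 and 39 of 358 list medians. No paired analysis was possible because each group has 1 library. Genes with few UMIs, such as Rd3 in the first library, are limited by depth.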

Other observations

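Of 7 measured sex-linked spermatid genes, 4 were at least 2-fold higher in both libraries than in the other deep barcodes and none lower, with medians of 1.44 and 1.20. Cypt1, an X-linked gene of spermatids, was at 271 and 395 CPM in the first and the high-fat library. Of 14 genes of mitophagy and ubiquitin in spermatids, 3 were higher and none lower. Of 16 oxidative stress genes, 4 were higher and 3 lower: Txndc8, a thioredoxin gene of spermatids, was at 710 and 694 CPM against 216 and 239 CPM, and Prdx5, a peroxiredoxin gene, at 74.8 and 78.9 CPM against 267 and 272 CPM. Of 14 heat shock genes, 1 was higher and 1 lower, and Hsp90aa1 was at 324 and 506 CPM, the one gene of that list past 1.5-fold between the libraries. The background for these counts was 20.4% higher and 17.4% lower over all genes.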
